A study of Mus musculus with 230 samples.

Results

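Single dorsal root ganglion (DRG) neurons from mice aged 1 year were compared after sciatic nerve injury and without it, cell by cell across genes. Injured cells were the count columns whose name starts with R and a digit, and intact cells those named L plus digits alone. A cell was kept with at least 50000 endogenous counts outside CT010467.1, a single feature that dominates every library. The rule kept 26 of the 69 single cells with RNA counts in the series: 18 of 22 injured cells and 8 of 8 intact cells. The mice were C57BL/6 X CAST/Ei crosses, and the only labelled difference between the groups is the condition, injury or intact, at an age of 1y. L4 and L5 ganglia were digested, neurons were picked by hand, the nucleus was taken out for bisulfite libraries (not analysed here), and the remaining cytoplasm was turned into SMART-seq2 RNA libraries. The sources used here do not give the time since surgery, the sex, the number of animals, or whether intact cells came from the animals that were injured.

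Because no animal is named, each group counts as 1 sample: levels and shares of cells are described, and no test was made between injured and intact cells. Values are CPM without spike-ins and without CT010467.1, and a gene is called present in a cell at 10 CPM or more. Other libraries from the same cross stand beside the 1-year cells. They are 3 injured and 3 intact low-input RNA libraries of sensory neurons at 12 months, the replicated comparison at this age. They also include 18 injured and 13 intact single cells at 1 month, kept by the same rule.

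Sensory neurons of the DRG send an axon branch to the periphery and another to the spinal cord. When the peripheral branch is cut or crushed, the cell body is known to switch on a regeneration program: transcription factors such as ATF3, JUN and SOX11, growth-associated proteins such as SPRR1A and GAP43, and neuropeptides such as galanin, NPY and neurotensin that the resting neuron makes little of. Neurons whose axons run elsewhere keep their resting state, so single cells of an injured ganglion can differ in this program. JUN and ATF3 belong to the bZIP family, whose dimers bind AP-1 and CRE sequences.

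Promoters of injury genes are shown because the comparison turns on whether these genes were on or off in a cell. RefSeq sequences of GRCm38.p6 held a promoter for 27 of the 39 genes of the 3 injury lists, in 29 windows, and the 250 bases before each gene start were searched on both strands for TGANTCA (AP-1) and TGACGTCA (CRE), which do not overlap each other in the windows shown. The first motif was in 2 of the 29 windows (6.9%), against 2217 of 32851 windows of all promoters (6.75%). The second was in 1 of 29 (3.45%), against 508 of 32851 (1.55%). The windows with a match are printed with the match in capitals, and Npy, with no match, is printed beside them. A match is a description of letters only.
Sprr1a, chr3:92485882-92486131, minus strand: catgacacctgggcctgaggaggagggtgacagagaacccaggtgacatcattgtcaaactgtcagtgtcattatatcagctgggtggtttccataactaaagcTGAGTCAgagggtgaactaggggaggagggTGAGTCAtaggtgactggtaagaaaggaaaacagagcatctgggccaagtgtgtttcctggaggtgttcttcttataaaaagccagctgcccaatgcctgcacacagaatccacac
Nts, chr10:102490419-102490668, minus strand: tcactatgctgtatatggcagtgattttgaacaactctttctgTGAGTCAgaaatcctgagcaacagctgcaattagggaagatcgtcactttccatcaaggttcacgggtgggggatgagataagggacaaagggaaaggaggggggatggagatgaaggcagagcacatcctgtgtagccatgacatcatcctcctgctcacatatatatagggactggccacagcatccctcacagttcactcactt
Ucn, chr5:31138896-31139145, minus strand: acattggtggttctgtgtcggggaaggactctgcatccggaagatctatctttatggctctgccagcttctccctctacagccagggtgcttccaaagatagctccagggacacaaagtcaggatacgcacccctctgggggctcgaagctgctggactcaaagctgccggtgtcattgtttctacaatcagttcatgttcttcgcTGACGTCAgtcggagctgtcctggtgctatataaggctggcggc
Npy, chr6:49822460-49822709, plus strand: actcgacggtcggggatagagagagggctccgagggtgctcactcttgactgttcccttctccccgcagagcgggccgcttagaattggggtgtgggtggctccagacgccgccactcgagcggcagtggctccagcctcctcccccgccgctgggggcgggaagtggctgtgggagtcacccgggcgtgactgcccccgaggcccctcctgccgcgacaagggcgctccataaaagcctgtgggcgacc
Sprr1a carried TGAGTCA at 146 and again at 116 bases before the gene start, Nts carried TGAGTCA at 207 bases, and Ucn carried TGACGTCA at 44 bases.

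The kept cells held 129290 to 22890735 (median 3917071) counts outside CT010467.1 when injured and 3879158 to 10289489 (median 7145018) when intact. CT010467.1 took 14.4% to 97.3% of a cell's endogenous counts. The shallowest kept cell was R15M at 129290 counts and the deepest of the 4 left out was R14L at 29021; 1 of the 4 had no counts. The picked cells were checked against 12 sensory neuron markers, among them the neuronal tubulin gene Tubb3 and the sensory factor genes Isl1 and Pou4f1. Their summed level was 1088 to 23762 (median 12797) CPM in injured and 1858 to 15941 (median 14057) CPM in intact cells, and 5 cells stood apart below 5000 CPM: R5L, R8S, R10S and R12L (injured) and L2 (intact). In these 5 cells mitochondrially encoded genes took 23.9% to 43.3% of the counts, and summed markers of satellite glia, the cells that wrap DRG neurons, ranged from 4780 to 49648 CPM. R18ML held 27426 CPM of satellite glia markers beside 19913 CPM of neuron markers. The label of a sensory neuron rests on low marker levels in 5 of the 26 cells, and counts are also given without them. The 39 injured and 17 intact RNA samples at 1 year are held in 1 count column per cell name. These 5 cells have a single RNA sample each, where most other kept 1-year cells have more. By the numbers in the sample titles, they and the empty R21m come after all other kept 1-year cells. Whether this marks a separate preparation is not given and was not tested. No pair of the 26 columns was identical. Y-linked genes had 0 counts in all 1-year cells but R8S, which had 1. Xist, which female cells express, was at 0 to 298.4 CPM (median 0.82) in injured and 0 to 99.1 CPM (median 3.25) in intact cells. It was thus absent from several cells of both groups, in libraries made without the nucleus.

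**Figure D1:**
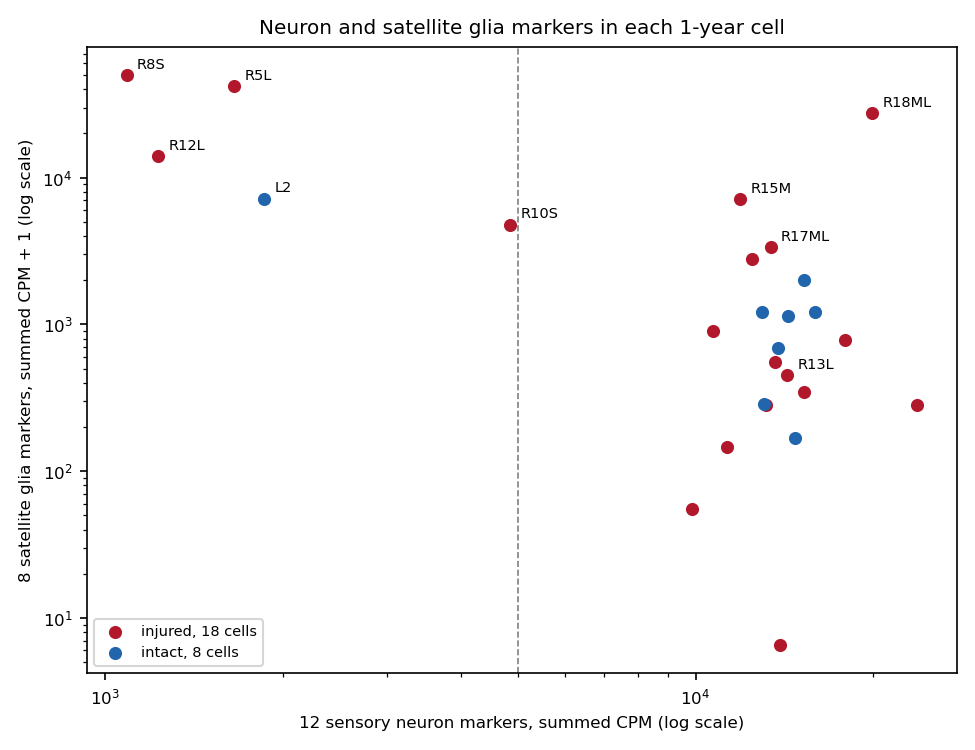
Summed CPM of 12 sensory neuron markers (x axis, log scale) against summed CPM of 8 satellite glia markers plus 1 (y axis, log scale) in each of the 26 cells at 1 year; red points are the 18 injured and blue points the 8 intact cells, and the dashed line marks 5000 CPM. R5L, R8S, R10S, R12L and L2 lie left of the line, and R18ML is high on both axes.

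At 1 year the injury genes separated few of the injured cells from intact ones. Shift here means the difference between the groups in the mean over cells of log2(CPM + 1), injured minus intact, in which every cell weighs the same. Of 10337 genes present in at least 5 of the 26 cells, 18 (0.174%) were higher in injured cells by a shift of 2 or more and 116 (1.12%) were lower by as much. The higher count was 11 without R3S and 28 without L11, and the lower count 75 without R12L and 217 without L2. Without the 5 cells of low neuron markers the counts were 17 and 68, and with a pseudocount of 10 CPM they were 0 and 2. The 3 injury lists together (regeneration transcription factors, axon growth and injury effectors, injury-induced neuropeptides) had 29 of 39 members among these genes. Of the 29, Cd44 was past the shift upward and Adcyap1 downward, and their median shift was 0.01, beside -0.46 over all genes. With CT010467.1 in the denominator these medians were -0.637 and -0.819, and with no filter on low values -0.011 and -0.039. In the 12-month low-input libraries, edgeR's quasi-likelihood test called 347 of 14085 genes higher after injury (2.46%) and 91 lower (0.646%) at a Benjamini-Hochberg adjusted p below 0.05. The 438 calls in either direction (3.11%) became 1014 without intact replicate 2, 271 without intact replicate 3, and 128, 107 and 163 without injured replicates 1, 2 and 3. In the fit of all libraries, 19 of 36 tested members of the same 3 lists were called higher and 0 lower, with a median log2 difference of 3.40 (3.12 with the 5 genes that had no intact counts at a bound from 3 counts). The lists were chosen with earlier results on these libraries known, so the low-input direction is not independent support. The labels do not say whether the low-input libraries came from separate animals, so their p-values measure the spread between these libraries, which may be technical. Their fold changes are relative to all genes: scaled by spike-ins instead, the median of all genes moved to 5.348 on the log2 scale.

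Of the 347 genes called higher in the low-input libraries, 63 (R12L) to 239 (R17ML) were present in an injured cell and 154 (L2) to 233 (L11) in an intact cell. With every cell thinned to 50000 counts, the ranges were 64 to 221 and 141 to 218, so the groups overlapped. Among the 347, 262 were among those measured in the 1-year cells. Their median shift in the cells was -0.377, 67 of them had a shift above 0, near the -0.458 and the 2310 of 10337 genes above 0 over all genes, and 1, the cholesterol exporter gene Abca1, was past the shift of 2. In the 1-month cells 286 of the 347 were measured, and their median shift was 0.821, beside 0.186 over all genes. Of the 286, 29 were past the shift of 2, where 64 of 10325 genes were in all (0.620%). Over all genes 23 were lower by as much (0.223%). The injured cells and the low-input libraries at 12 months share an age and a cross, but whether they came from the same animals is not given. A low-input library sums several cells, so that fewer cells in a state and less RNA per cell cannot be told apart in it.

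Sprr1a (GRCm38 chromosome 3, 92483952 to 92485895), a gene for a small proline-rich protein that promotes axon growth, was present in 2 of 18 injured cells, 11.1% (exact 95% interval 1.38 to 34.7), and in 0 of 8 intact cells, 0% (exact 95% interval 0 to 36.9). These intervals treat cells as independent draws, which the labels do not show. The injured cells ranged from 0 to 1554 CPM (median 0), and the intact cells from 0 to 0.773 CPM (median 0.155). R13L was at 1554 CPM (291 counts), R15M at 38.7 CPM (5 counts) and R17ML at 8.39 CPM (192 counts), while the other 15 injured cells overlapped the intact cells near 0. CT010467.1, which CPM leave out, took 97.17% of the endogenous counts in R13L and 97.32% in R15M. In the other kept cells it took at most 78.81% (R6M), and at most 61.98% when intact (L14). Leaving it out therefore raises CPM most in R13L and R15M, where the 5 counts of R15M were among 4816496 endogenous counts. The 3 injured low-input libraries at 12 months held 1370, 2600 and 1642 CPM and the 3 intact ones 0.972, 0 and 1.5 CPM. In these libraries, which do not overlap, Sprr1a rose by 10.71 on the log2 scale (edgeR adjusted p = 0.00029).

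Atf3 (GRCm38 chromosome 1, 191170296 to 191218039), which encodes the stress-activated factor that marks axotomised neurons, was detected in both groups. Injured cells ranged from 0 to 929 CPM (median 30.6) and intact cells from 0.479 to 164 CPM (median 51.6), and it was present in 14 of 18 injured and 6 of 8 intact cells (11 and 5 with each cell thinned to 50000 counts). R13L at 929 CPM and R17ML at 196 CPM exceeded the highest intact cell, L14, and the other 16 injured cells lay within or below the intact range. The lead of R13L depends on leaving out CT010467.1. It held 174 Atf3 counts among 6611305 endogenous counts and L14 905 among 14513840, a lower share in R13L. The low-input libraries held 1039, 1241 and 831 CPM after injury and 6.02, 0 and 13 CPM when intact, a log2 difference of 7.02 (edgeR adjusted p = 0.0031). The intact 1-year cells spanned higher Atf3 levels than the intact libraries, on CPM scales that were normalized separately.

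The other regeneration factors also overlapped between injured and intact cells. Jun, the AP-1 partner of ATF3, was at 3.91 to 5275 CPM (median 193) in injured and 81.5 to 988 CPM (median 168) in intact cells, with 5275 CPM in R13L, 1248 CPM in R18ML and 988 CPM in the intact cell L14. R13L held 988 Jun counts among 6611305 endogenous counts and L14 5454 among 14513840, a lower share in R13L. Sox11, a factor of neuronal growth, was present in 5 of 18 injured cells and 1 of 8 intact cells. It was led by R10S at 97.4 CPM and R13L at 32 CPM (6 counts). None of the 10 factors was past the shift of 2, and their median shift was -0.25. Stat3, Klf6, Klf7 and Smad1, which respond to cytokine and growth signals, had shifts of -0.50, 0.01, -0.03 and -1.02. In the low-input libraries 5 of the 10 were called higher by edgeR: Atf3, Smad1, Klf6, Stat3 and Sox11, of which Stat3 and Sox11 were lost in 5 of 14 and 7 of 14 alternative fits.

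Among the growth effectors, Gap43, which encodes a growth-cone protein, ranged from 4.05 to 2012 CPM (median 469) in injured and from 3.01 to 1289 CPM (median 254) in intact cells, a shift of 0.38. R1M, R4M, R9M, R24S, L10 and L15 were below 10 CPM, and both groups covered nearly the same range. Flrt3, a cell-surface guidance receptor, had a shift of 1.95, was present in 14 of 18 injured and 4 of 8 intact cells, and reached 799 CPM in R12L. Without the 5 cells of low neuron markers its shift was 1.09. Flrt3 rose by 3.80 in the low-input libraries (edgeR adjusted p = 0.0038), a call lost in 1 of 14 alternative fits. Tubb6, a beta-tubulin gene, was at 246 CPM in R13L, 89.1 in R17ML and 74.9 in R8S, against 0.373 to 61.4 CPM (median 2.07) in intact cells. Gadd45a, a stress and DNA-demethylation gene, was at 443 CPM in R13L and 186 CPM in R15M. Intact cells held 0 to 24.4 CPM of it (median 7.96). These R13L and R15M values also depend on leaving out CT010467.1. R13L held 46 Tubb6 counts among 6611305 endogenous counts and the intact cell L4 238 among 7457372, a lower share in R13L. For Gadd45a, R13L held 83 counts, R15M 24 among 4816496 and the intact cell L11 199 among 16387846. That share was lower in R15M than in L11 and similar in R13L. Cacna2d1, the calcium-channel subunit bound by gabapentin, was at 0.56 to 1729 CPM (median 187) in injured and 7 to 519 CPM (median 295) in intact cells, while in the low-input libraries it rose from 30.1, 35.3 and 29 CPM to 721, 575 and 488 CPM (log2 4.27, edgeR adjusted p = 2.7e-05).

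Of the neuropeptides that injury is known to induce, Npy, Nts, Ucn and Gal were each present in a minority of injured cells. R5L, R8S, R13L, R15M and R17ML each held more than 1 of them. In R15M these were 2 counts of Nts and 3 of Gal, and in R13L Gal was 2 counts. Npy was present in 2 of 18 injured cells, R13L at 400.4 CPM (75 counts) and R5L at 33.1 CPM (91 counts), and in 0 of 8 intact cells (highest 1.47 CPM). Nts, the neurotensin gene, was present in 5 of 18 injured cells: R17ML at 176, R13L at 53.4, R8S at 47, R15M at 15.5 and R3S at 10.1 CPM, the R15M value being 2 counts. No intact cell passed 3.15 CPM of Nts. Ucn, the urocortin gene, was present in R17ML alone at 74.9 CPM (1714 counts). Gal, the galanin gene, was present in 7 of 18 injured cells, with R5L at 172, R8S at 136, R17ML at 112 and R12L at 104 CPM, and in 1 intact cell, L14, at 117 CPM. Galanin overlapped between the groups, and 3 of the 4 highest injured cells were among those with low neuron markers and high satellite glia markers, whose part in these values was not tested.

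All of these peptides were far higher in each injured low-input library. Npy was at 1624, 1933 and 1622 CPM after injury and 1.75, 7.84 and 0 CPM when intact (log2 10.13, edgeR adjusted p = 0.0024). Nts was at 702, 485 and 555 CPM and 1.17, 0 and 0 CPM (log2 9.58, edgeR adjusted p = 0.00029). Gal was at 2208, 1277 and 834 CPM and had 0 counts in the 3 intact libraries, at least 3611-fold higher if 3 counts are assumed for the intact group as a whole (edgeR adjusted p = 0.0023). Ucn was at 35.2, 32.6 and 43.7 CPM, at least 90.8-fold higher on the same assumption (edgeR adjusted p = 0.0022). None of the calls of Sprr1a, Atf3, Npy, Nts, Gal and Ucn was lost in the 14 alternative fits. Adcyap1, the gene of the peptide PACAP, went the other way in the cells: it was present in 4 of 18 injured and 5 of 8 intact cells with a shift of -2.20, and L14 held 745 and R13L 315 CPM. Without L14 its shift was -1.42. Adcyap1 rose by 7.25 in the low-input libraries (edgeR adjusted p = 0.017; lost in 3 of 14 alternative fits). Vip, Crh and Grp were present in none of the 26 cells. Cck, the cholecystokinin gene, was present in R13L (3 counts) and R10S (41 counts).

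**Figure D2:**
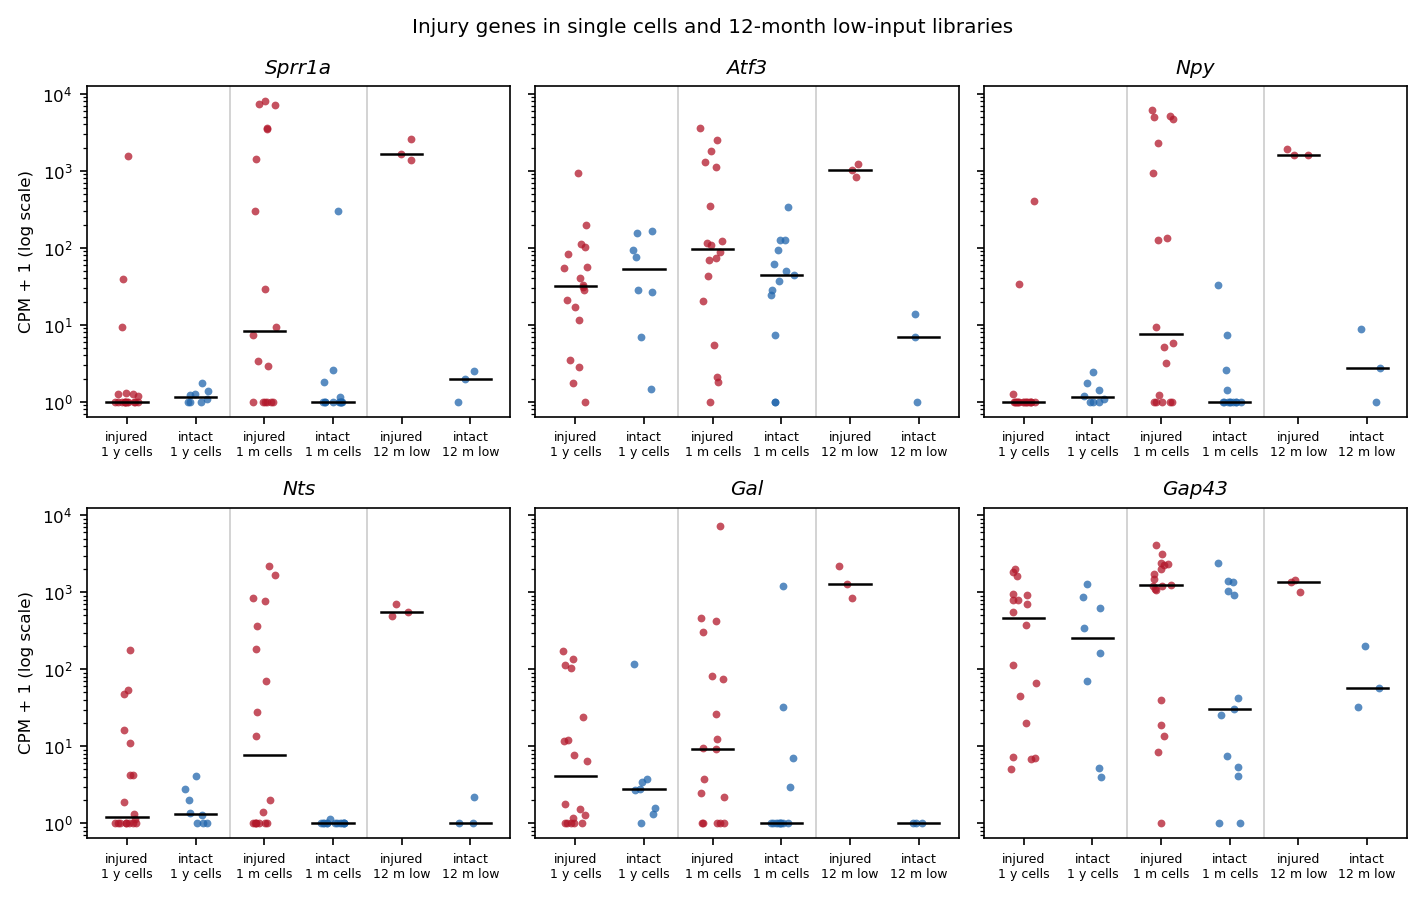
CPM plus 1 (y axis, log scale) of 6 injury genes in injured (red) and intact (blue) single cells at 1 year and 1 month and in low-input libraries at 12 months; each point is a cell or library and the black line is the group's median. Cells and libraries were normalized separately. Of the 18 injured 1-year cells, R13L reaches the range of the injured libraries for Sprr1a and Atf3 and none does for Npy, Nts or Gal, while several injured 1-month cells do for Sprr1a, Atf3, Npy and Nts.

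Of the 39 injury genes, 10 were below 10 CPM in every intact cell at 1 year: Sprr1a, Arg1, Anxa1, Npy, Nts, Vip, Ucn, Cck, Crh and Grp. R13L had 4 of these 10 present (Sprr1a, Npy, Nts, Cck), R15M had Sprr1a and Nts, and R17ML had Nts and Ucn. R3S and R8S had Nts, R5L had Npy and R10S had Cck. In R13L, Nts was 10 counts and Cck 3. The intact cells L1, L10 and L15 held 33, 22 and 35 Cck counts, yet were below 10 CPM. The other 11 injured cells had none. The 10 genes were picked as off in the intact 1-year cells, so those cells have none by choice. Presence in injured cells alone is fixed by that choice and cannot show an effect of injury. Intact 1-month cells, which had no part in the choice, held 0 to 3 of the 10. The number present was 10 of the 39 in R12L to 28 in R17ML among injured cells, with 27 in R13L, against 15 to 22 in intact cells. R17ML is the deepest cell, with 22890735 counts and 20889 genes detected, and it held markers of several neuron subtypes. R13L is among the shallowest, with 187292 counts, so that a single count weighs far more there.

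Genes were also counted in each cell that were at 100 CPM or more and stayed below 10 CPM in every intact cell at 1 year (for an intact cell, in every other one). R13L had 18 such genes, of which 16 were tested in the low-input libraries and 5 (31.2%) called higher there, where 2.46% of all tested genes were. The 5 were Sprr1a, Npy, Prr15 at 352.4 CPM, Star, the gene of the steroidogenic cholesterol transporter, at 288.3 CPM, and Phlda1 at 101.4 CPM (19 counts); the last 3 were chosen after their values were seen. R12L had 259 such genes, R5L 96, R10S 75, R8S 69 and the intact cell L2 94, and of those tested 0, 1, 0, 1 and 2 were called higher. Cells with few such genes had calls too: 1 of 4 tested in L10, 1 of 6 in L14 and 1 of 1 in R17ML. R15M had 23 with none called among 11 tested, and the remaining injured cells had 0 to 10. The same count in injured 1-month cells was also set against the intact cells at 1 year, not against intact cells of their own age. It called 8 of 12 tested genes in L4R4M, 8 of 13 in L4R6L, 9 of 12 in L4R9M, 9 of 12 in L4R12m and 6 of 9 in L4R14L. It called 10 of 36 in L4R15M, 3 of 11 in L4R8M and 3 of 7 in L4R10S. In the other 10 cells, among them all 7 cells named L5R, it called none. The 1-month cells were kept by depth alone, and some held few genes. Genes detected were 607 in L4R8M (injured) and 560 and 1140 in L4L4M and L4L8M (intact). Of the 12 neuron markers, these cells had 1, 0 and 6 present. They count in the 1-month shifts and shares. Sprr1a in L4R4M, L4R6L, L4R9M, L4R12m and L4R14L was between 1425 and 8059 CPM, and it was present in 8 of 18 injured and 1 of 13 intact cells at 1 month. Y-linked counts were 0 to 1078 in the kept 1-month cells (median 193.5 injured, 36 intact), and Xist was at 0 CPM in all of them. These cells also carried spike-in counts where 1-year cells had nearly none. Age therefore cannot be told apart from sex or library preparation.

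**Figure D3:**
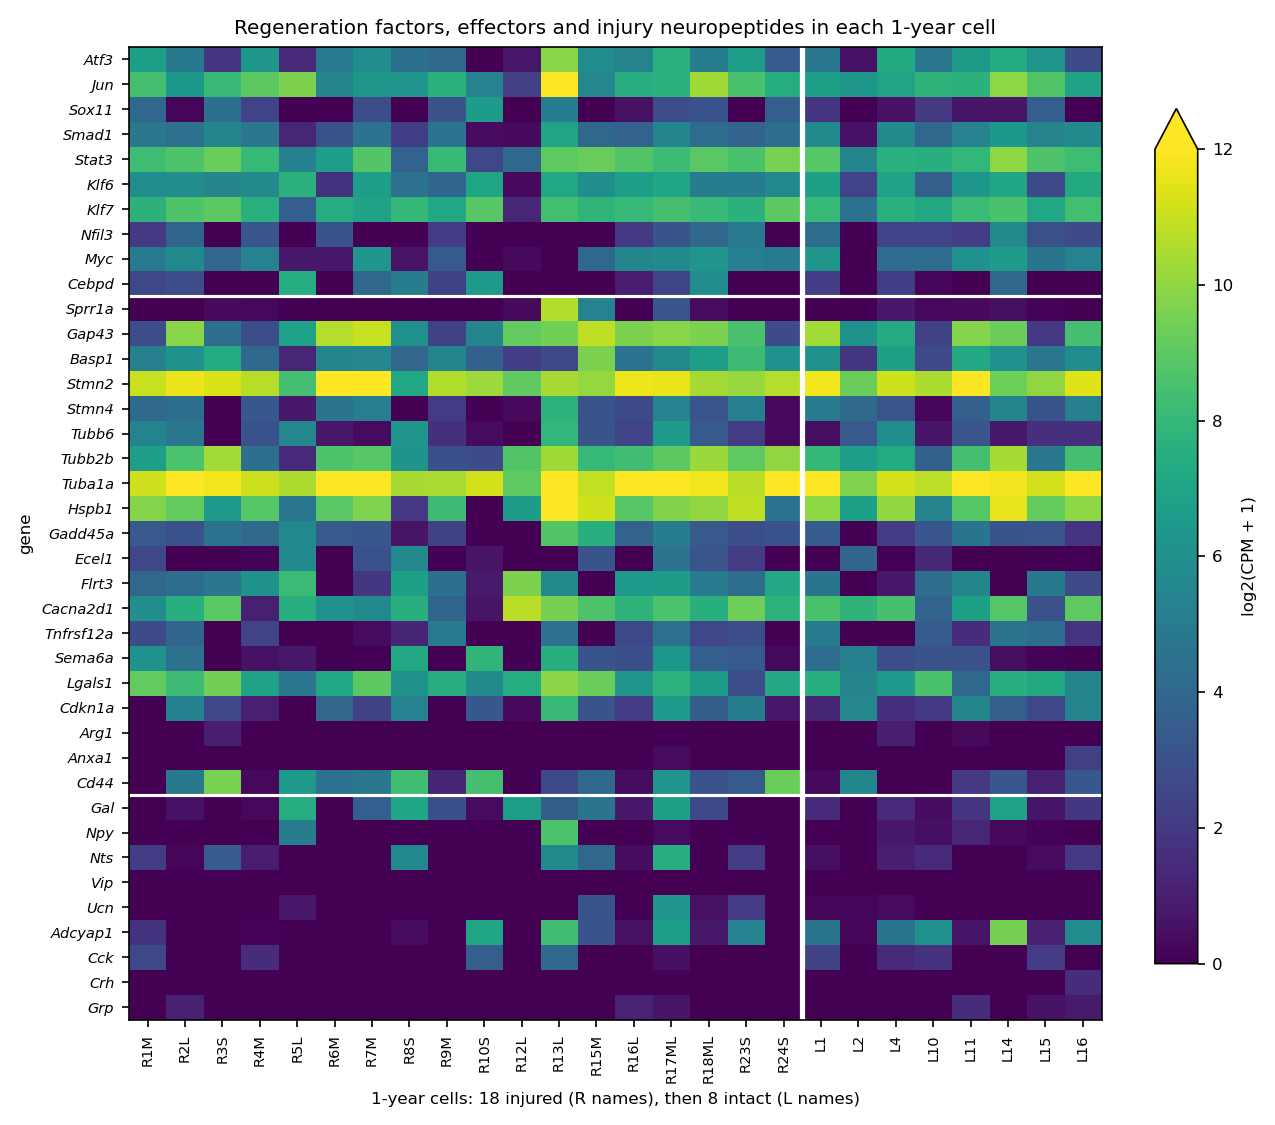
log2(CPM + 1) of the 39 injury genes (rows; regeneration factors, effectors and neuropeptides, split by white lines) in the 18 injured and 8 intact cells at 1 year (columns); colours stop at 12. R13L and R17ML show more of the genes than the other cells, with 27 and 28 of 39 at 10 CPM or more, and the bottom rows are dark in nearly all cells.

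Secreted factors that injured neurons are known to release did not pass the shift either: none of 6 measured members was past the shift, with a median of -0.34. Csf1, which recruits microglia, was present in 6 of 18 injured and 5 of 8 intact cells, and Bdnf, a neurotrophin gene, in 12 of 18 and 7 of 8. Fst, the follistatin gene, and Artn, the artemin gene, were each present in 2 injured cells and no intact cell. Il6, Reg3b and Lif were present in none. In the low-input libraries 3 of 8 tested were called higher, among them Csf1 (log2 5.13, edgeR adjusted p = 0.018, lost in 4 of 14 alternative fits). Receptors of cytokine signals differed in presence: Il6st, the shared gp130 receptor chain, was present in all 26 cells, Lifr in 17 of 18 injured and 8 of 8 intact cells, and Il6ra in 0 of 18 and 1 of 8. Il6st was at 85.1 to 2174 CPM (median 476) in injured and 114 to 650.5 CPM (median 168) in intact cells, and Lifr at 5.87 to 2331 CPM (median 669.5) and 234 to 735 CPM (median 602). Socs3, the feedback inhibitor of this pathway, was above the highest intact cell (41.8 CPM, L11) in R23S at 260.3, R18ML at 208, R1M at 107, R24S at 72.2 and R8S at 47.8 CPM, with a shift of 0.89.

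Several of the 12 named genes with the highest shift had their highest values in R3S, R24S and R10S, which also carried markers of non-peptidergic nociceptors. Gna14, a G-protein subunit gene (GRCm38 chromosome 19, 16435667 to 16610818), had the highest shift of the named genes at 2.57: injured cells ranged from 0 to 842 CPM (median 49.2) and intact cells from 0 to 148 CPM (median 1.25). R24S held 842, R10S 430.3, R18ML 427 and R3S 335 CPM, and the highest intact cell, L11, held 148 CPM. Cd44, a hyaluronan receptor gene on the injury effector list, followed with a shift of 2.38, present in 10 of 18 injured and 1 of 8 intact cells and led by R3S at 755 and R24S at 638 CPM. In the low-input libraries Cd44 was at 109, 195 and 112 CPM after injury and 85.5, 0 and 254 CPM when intact, which overlap (edgeR adjusted p = 0.968). Ctxn3, a cortexin gene, reached 607 and 593 CPM in R3S and R24S, and Cd24a, a sialoglycoprotein gene, 5745, 4529 and 3677 CPM in R3S, R24S and R10S, where no intact cell passed 466. Rab27b, a vesicle-secretion GTPase gene, was led by the same 3 cells at 912, 679 and 626 CPM. Gfra2, the receptor of neurturin, was at 702 CPM in R24S and 686 CPM in R3S, and at 368 CPM in the intact cell L2, a shift of 2.03.

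R24S, R3S and R10S were also the injured cells highest in Mrgprd, the receptor gene that defines a class of non-peptidergic nociceptors. R24S held 1544, R3S 865 and R10S 224 CPM, and L2 428 CPM among intact cells, while R17ML, R8S and R7M held 78.9, 43 and 36 CPM. The summed level of 10 non-peptidergic markers was 7403 and 4711 CPM in R24S and R3S and at most 1297 CPM in an intact cell. The part of subtype in the shift was not tested. Abca1 was present in 18 of 18 injured and 6 of 8 intact cells, at 16.1 to 779 CPM (median 98.7) and 0.544 to 81.3 CPM (median 38). Its highest cells were R10S at 779, R5L at 702 and R15M at 565 CPM, and without the 5 cells of low neuron markers its shift was 1.26. It rose by 2.69 in the low-input libraries (edgeR adjusted p = 0.046), a call lost in 8 of 14 alternative fits. Gpm6a, Fam114a1 and Mboat2 had shifts of 2.17, 2.15 and 2.03, and Flrt3 and Zmat4, the last of the 12, of 1.95 and 1.93, just under 2.

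Several of the 12 named genes with the lowest shift were present in nearly all intact cells and in fewer injured ones. Grin3a, a glutamate receptor subunit gene, had the lowest shift, -3.54: it was present in 8 of 8 intact cells at 13.3 to 203 CPM (median 63.9) and in 4 of 18 injured cells, although the injured cell R23S held the highest value of all, 604 CPM. Sept4, a septin gene, had a shift of -3.30, with 0.367 to 433 CPM (median 132) in intact and 0 to 115 CPM (median 6.25) in injured cells. Disp3 (-2.70) and Iqsec3 (-2.75) were each present in 8 of 8 intact and 8 of 18 injured cells, and Slc6a17, a vesicular amino acid transporter gene (-2.74), in 8 of 8 and 13 of 18. The highest Disp3 values were in the injured cells R18ML and R2L at 356 and 355 CPM, and with counts summed over the cells of a group its difference was 0.323. Arsg, an arylsulfatase gene, was present in 7 of 8 intact cells and 1 of 18 injured cells (R17ML), a shift of -2.69 with intact cells at 6.61 to 76.1 CPM (median 18.1). Thinned to 50000 counts, where a single count already passes 10 CPM, it was present in 6 injured and 6 intact cells, and Grin3a in 6 and 7.

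Olfm2 (-2.94), Cux2 (-2.68), Bmpr1b (-2.87), a BMP receptor gene, and Pou4f3 (-2.72), a POU-domain factor gene, overlapped between the groups. Pou4f3 was at 823 CPM in L14, and the injured cells R15M, R23S, R7M and R1M held 409.9, 189.6, 139 and 114 CPM. R23S was the highest injured cell for Grin3a, Olfm2 (161 CPM), Cux2 (138 CPM) and Bmpr1b (32.1 CPM), the genes in which the intact cells L4 and L16 were also high. None of the 12 was called in the low-input libraries (edgeR adjusted p from 0.371 to 0.994). Over all genes, 114 of the 116 lower in the cells were tested there, 1 was called lower and 7 were called higher.

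**Figure D4:**
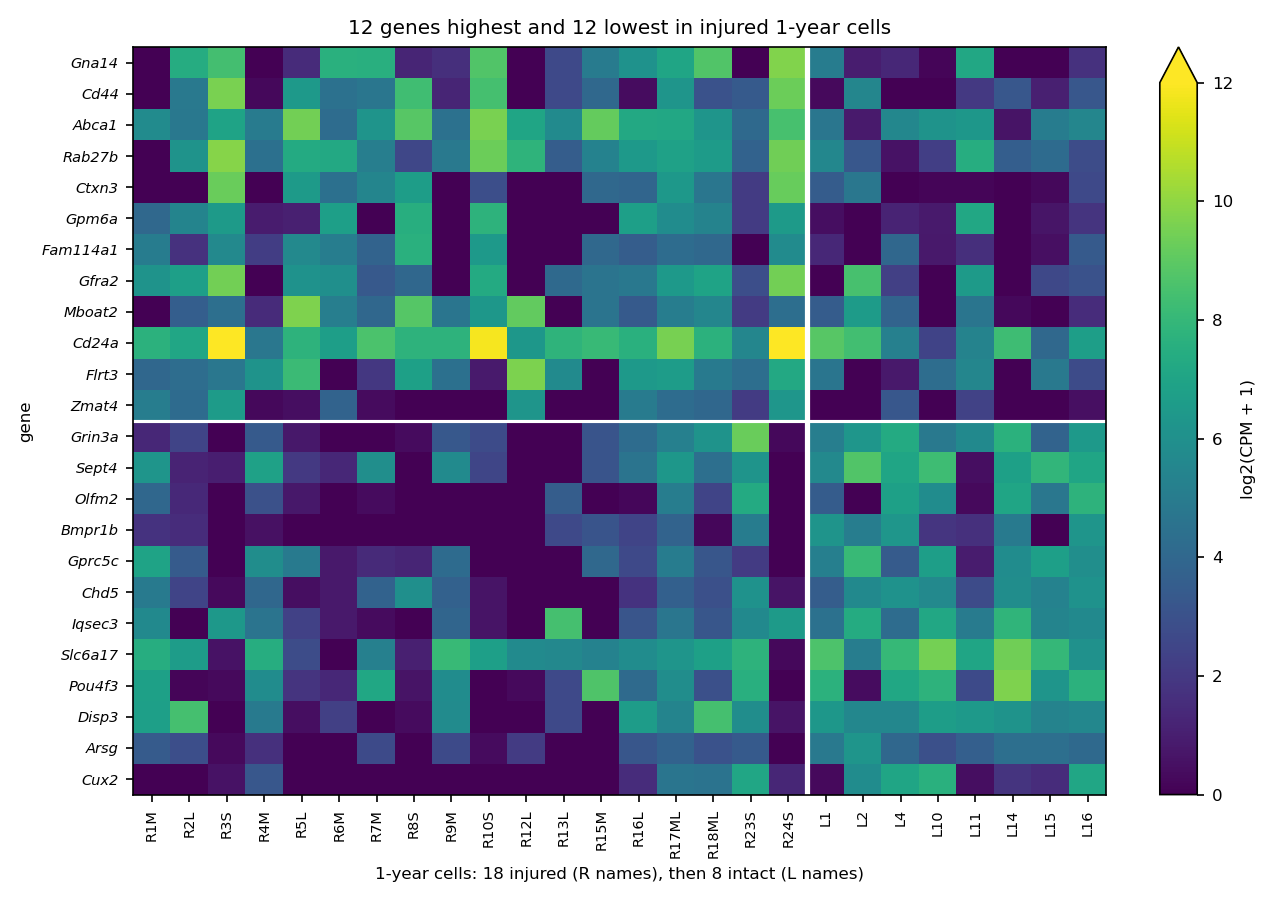
log2(CPM + 1) of the 12 genes with the highest shift (upper rows) and the 12 with the lowest (lower rows, below the white line) in the 18 injured and 8 intact cells at 1 year; colours stop at 12. R3S, R10S and R24S are brightest for Cd24a and Rab27b, and Grin3a is lit in all 8 intact cells and dark in most injured ones.

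The cells covered several neuron classes in both groups, and like cells could be found across the injury. Calca, the CGRP gene of peptidergic neurons, ranged from 6.55 to 32035 CPM (median 1539) in injured and 20.9 to 16487 CPM (median 776) in intact cells; R6M held 32035, R2L 17509 and R18ML 10716 CPM, and L11 16487 and L1 11274 CPM. Runx3, the factor of proprioceptive neurons, was present in R9M at 102, L15 at 89.1, L10 at 82.6 and R4M at 73 CPM and in no other cell. These 4 cells also held Ntrk3, the receptor of neurotrophin-3, at 3035, 477, 712 and 1187 CPM, and Pvalb, the parvalbumin gene, at 109, 125, 1334 and 61.1 CPM. Across the genes measured, the highest correlation of any pair of cells was 0.924, between the intact cell L15 and the injured cell R4M (Pearson r of log values, a description, since genes are not independent). R4M and L15 held 81.9 and 76 CPM of Atf3, 499 and 429 CPM of Jun, 6.28 and 3.01 CPM of Gap43 and 0.179 and 0.0972 CPM of Sprr1a.

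R13L had its own mix, in CPM that leave out CT010467.1, which took 97.17% of its endogenous counts. Nefh, the heavy neurofilament gene of large myelinated neurons, was at 8164 CPM, the highest of the 26 cells. Calca was at 534, Mrgprd at 5.34 and Scn10a, the channel gene of nociceptors, at 112 CPM. Its summed neurofilament-class markers were 27940 CPM and its satellite glia markers 448 CPM. Hspb1, a chaperone gene that aids neuron survival, was also highest there at 14517 CPM, against 40.3 to 3106 CPM (median 779) in intact cells. R15M, the other cell with Sprr1a, held 1261 CPM of Nefh, 1562 CPM of Calca, 1841 CPM of Gap43 and 2228 CPM of Hspb1, with 129290 counts in all and 7124 CPM of satellite glia markers. R17ML held Nefh at 1682, Calca at 6495, Mrgprd at 78.9, Kit at 131 and Pvalb at 87.1 CPM together.

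**Figure D5:**
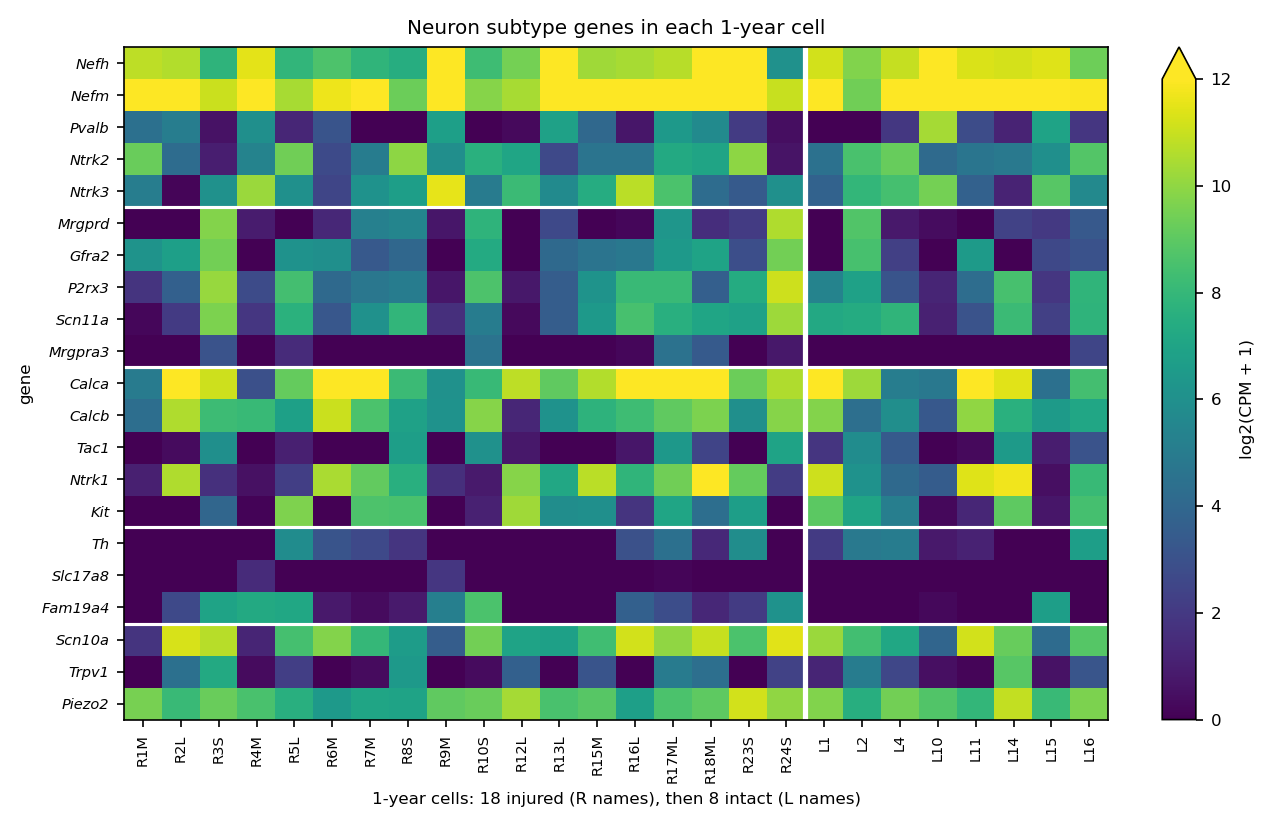
log2(CPM + 1) of genes of neuron classes in the 18 injured and 8 intact cells at 1 year; white lines split neurofilament, non-peptidergic, peptidergic and TH-class genes and, at the bottom, Scn10a, Trpv1 and Piezo2; colours stop at 12. Mrgprd is bright in R3S and R24S, Calca in R2L, R6M, L1 and L11, and L2 is the intact cell bright for Mrgprd.

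Ion channel and receptor lists are read beside the share over all genes, 0.174% higher and 1.12% lower by the shift. None of 10 measured voltage-gated sodium channel genes was past the shift, with a median of -0.30; Scn9a, the pain channel gene, was at 42.7 to 1147 CPM (median 419.8) in injured and 57.4 to 921 CPM (median 558) in intact cells and Scn10a at 1.35 to 2814 CPM (median 368) and 13.9 to 2336 CPM (median 391). Scn3a, the embryonic channel gene that injury is known to bring back, was present in none of the 26 cells. None of 21 potassium and HCN channel genes was past the shift (median -0.60); Kcna2, which nerve injury is known to lower, was present in 18 of 18 injured and 8 of 8 intact cells at 1 year and in 10 of 18 and 12 of 13 at 1 month. None of 12 TRP, Piezo, ASIC and P2X genes was past it either. Of 11 neurotrophin, GDNF and gp130 receptor genes, Gfra2 was past it, upward. Among receptors of transmitters, Cnr1, the cannabinoid receptor gene, and Htr3a, a serotonin-gated channel gene, were lower by the shift at -2.51 and -2.33, 2 of the 15 measured; Htr3a was at 0.983 to 1505 CPM (median 43) in injured and 0.64 to 2873 CPM (median 531) in intact cells, which overlap.

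The nuclei of the cells were used for DNA methylation, so the genes of that machinery are given as well. None of 16 measured DNA methylation genes was past the shift, with a median of -0.38. Dnmt1, the maintenance methyltransferase gene, was at 0 to 178 CPM (median 32.5) in injured and 20.7 to 79.7 CPM (median 39.1) in intact cells, Dnmt3a, a de novo enzyme gene, at 0 to 77.3 CPM (median 10.1) and 0 to 44.2 CPM (median 26.9), and Tet3, a 5-methylcytosine oxidase gene, at 0 to 203 CPM (median 14.4) and 0 to 67.6 CPM (median 15.3). In the low-input libraries edgeR called 4 of 16 higher: Dnmt1, Zbtb38, Gadd45a and Gadd45g, with Gadd45g at 160.4, 188 and 134 CPM after injury and 26.2, 23.5 and 20.5 CPM when intact (edgeR adjusted p = 0.0064). In the cells Gadd45g was at 0 to 308 CPM (median 83.5) in injured and 0 to 109.6 CPM (median 77.9) in intact cells.

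In the stress, survival and metabolic lists few genes were past the shift. Lists this short cannot show whether the share differs from that over all genes, 0.174% higher and 1.12% lower. None of 11 integrated stress and unfolded protein genes (median 0.20), 5 axon survival genes (-0.73), 15 cholesterol synthesis genes (-0.04), 16 glycolysis genes (-0.71) or 7 interferon and MHC class I genes (0.04) was past the shift. Of 7 cell death and p53 target genes, Phlda3 alone was past the shift, downward. Cdkn1a, the cell-cycle inhibitor gene, was at 272 CPM in R13L and 87.7 in R17ML. Intact cells held 1.37 to 46.2 CPM of it (median 8.14). R13L held 51 Cdkn1a counts among 6611305 endogenous counts and the intact cell L2 289 among 11446097, a lower share in R13L. In the low-input libraries 5 of 15 cholesterol synthesis genes and 2 of 11 death and p53 genes were called higher by edgeR, Cdkn1a with a log2 difference of 5.91 (adjusted p = 0.045; lost in 9 of 14 alternative fits). Markers of other cells did not pass the shift: satellite glia markers had a median shift of 0.14 over 8 genes and Schwann markers of -0.13 over 7. Apoe, the lipoprotein gene that satellite glia express strongly, ranged from 4.05 to 46769 CPM (median 741) in injured and 162 to 6444 CPM (median 1087) in intact cells.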

How the data were processed

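The data are raw counts per gene deposited by the authors. Per the file headers they were made with featureCounts 1.5.2 in paired mode on exons summed by gene name (GENCODE vM16 with spike-ins), with no strand option, so antisense partners cannot be told apart; the deposited table also lists each gene's exon length (not used in a test). Per the submitters' processing notes, Trim Galore, STAR and build mm10 were used. The cells, gene lists and motifs were chosen with earlier results of these data known.

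Kept cells had 129290 to 22890735 counts outside CT010467.1. CPM left out the 92 spike-ins and CT010467.1. A gene entered when it had 10 CPM or more in at least 5 of the kept cells; the shift used a pseudocount of 1 CPM and a size of 2. Genes were named as the 12 with the highest shift, present in at least 50% of injured cells, and the 12 with the lowest, present in at least 50% of intact cells, leaving out predicted genes, clones and pseudogenes, plus members of the gene lists chosen by role. Intervals on shares of cells are exact (Clopper-Pearson, 95%) and cover counting error over cells only; they treat cells as independent draws, although cells may share an animal. PCR reads without molecular identifiers are not independent molecules.

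The 18 low-input libraries (3 ages, injured and intact, 3 each) were fitted together with edgeR 4.0.16 (quasi-likelihood, TMM, R 4.3.3). CT010467.1 was left out of library sizes but stayed in the fit as a feature. After the filter on low counts 14085 genes were tested, and the 12-month contrast used Benjamini-Hochberg adjustment at 0.05. Without CT010467.1 these were 14084 genes, with 90 called lower rather than 91. Alternatives used DESeq2 1.42.0 and limma 3.58.1, and cells were handled with Python 3.11.15. Both calculations were run on simulated counts with changed genes before use. The simulated cells shared a single intact profile with counting noise only, so that run does not cover differences between cells. Methylation samples are not analysed here.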

Additional observations from a re-analysis of the deposited data

Results flagged for a closer look

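Among the 8 intact cells, 12 measures were searched for a cell far from the rest, and chance alone sets about 1 in 20 such groups apart. L14 stood apart for CT010467.1, which took 61.98% of its endogenous counts against 43.81% to 50.19% in the others. L2 stood apart for 7 measures. Mitochondrially encoded genes took 43.29% of its counts against at most 6.265% elsewhere, and its summed neuron markers were 1858 CPM against at least 12976 CPM. Its summed markers of other cells were the highest of the 8: satellite glia at 7180 CPM, Schwann cells at 4155 CPM, immune cells at 370.9 CPM and vessel and fibroblast cells at 3883 CPM. L2 also held 94 genes at 100 CPM or more that were below 10 CPM in every other intact cell, where the others had at most 7.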

How the results depend on the processing

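The 18 genes higher and 116 lower in injured cells depended on how cells were weighed. A pseudocount of 10 CPM gave 0 and 2, and summed counts gave 129 and 32. Thinning gave 96 and 508. With CT010467.1 in the denominator 0 were higher, and cells of at least 1000000 counts gave 31 higher. Without the 5 cells of low neuron markers, a choice made after seeing the data, 68 were lower. Leaving out each cell gave 11 to 28 higher and 75 to 217 lower. Injury genes past the shift upward numbered 1, and 0 with the pseudocount of 10 CPM or with CT010467.1 in the denominator, 2 without mitochondrial genes in the denominator, with TMM factors or in cells of at least 1000000 counts, 6 with summed counts, and 1 to 2 with each cell left out. The shift of Disp3, -2.70, was 0.323 with summed counts. No other named gene changed sign in any alternative. The median shift of all genes lay between -0.819 and -0.006 over these settings.

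For the 12-month low-input libraries, 438 calls (79.2% higher) became 904 with no filter and 65 with only the 6 libraries compared. DESeq2 gave 1218 (59.4% higher) and RLE factors 433 (65.6% higher). Spike-in scaling gave 13507, all higher. Leaving out each library gave 107 to 1014. Same-numbered libraries did not deviate together (r of -0.048, -0.048 and 0.042 for replicates 1 to 3 over 3780 genes). With 3 libraries a group, this cannot show whether same-numbered libraries came from the same animal, which the labels do not give. With a replicate block in the fit 62 genes were called. The cause of these differences was not tested. At the shallowest cells, of 129290 and 187292 counts, 2 counts suffice for presence at 10 CPM.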
